A study of Mus musculus with 4 samples.

Results

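Fcnb positive intermediate granulocyte precursors are described here: 1281 cells of 34122 that passed the cell filter in 4 single-cell libraries of mouse bone marrow. The study sorted CD45.2+Kit+ marrow 10 weeks after transplantation, stained it with barcoded antibodies and read RNA and antibody tags from the same droplets (10x Genomics 3′ chemistry, CITE-seq). Each group was 1 library: control (library name wt), Mll3SI (mll3KI), Mll4SI (mll4KI) and Mll3/4SI (dKI), and the labels do not spell out SI. All 4 groups shared the sort, the tissue and the time after transplantation, and donor numbers, strain and sex are not in the labels. Mll3 (Kmt2c) and Mll4 (Kmt2d) are histone methyltransferases of COMPASS-type complexes that act at enhancers. With 1 library per group there was no test of any condition. Where 4 values follow each other, they stand in the order control, Mll3SI, Mll4SI and Mll3/4SI. Intervals below cover counting error only, and "higher" or "lower" refers to the library, not to the allele.

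A cell belonged to the class if it held at least 500 genes, at least 1000 gene UMIs (unique molecular identifiers, each 1 captured RNA molecule) and at most 10% mitochondrial UMIs, and at least 5 UMIs of Fcnb. It also had fewer than 2 of the late genes Ltf, Ly6g and Cd177, and fewer than 3 of the monocyte genes F13a1, Ms4a6c, Ly86, Irf8, Csf1r and Ccr2, at 2 or more UMIs. The rule selected on measured values, so the levels of these 10 genes describe the choice and are no finding. For orientation, an earlier class (Elane at least 5 UMIs, Fcnb below 5, 3983 cells) and a later class (2 or more of the late genes, 18721 cells) were taken with the same limit on monocyte genes.

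Neutrophils are made in the marrow through a fixed order of granule programmes. Promyelocytes fill primary granules with Elane, Mpo, Ctsg and Prtn3, which are serine proteases and a peroxidase, and later stages switch to secondary granule genes such as Camp, Ltf, Lcn2 and Ngp. Fcnb encodes ficolin B, a lectin-like pattern recognition protein of myeloid cells, and is known as a transcript of the step between these programmes. C/EBP family factors, Cebpe above all, are known activators of the secondary granule genes.

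The 250 bases upstream of the RefSeq start of 4 genes are shown: Fcnb because it defines the class, and Lcn2, Ngp and Chil3 (a chitinase-like protein of neutrophils and macrophages) because their levels part ways between the libraries. They are printed 5′ to 3′ in the direction of the gene from the RefSeq promoter table on GRCm38.p6, the mm10 assembly that the submitters' processing notes name, with matches to the letters TTGCNNAA or, on the other strand, TTNNGCAA, a C/EBP-like pattern, in capitals. Windows lay on the minus strand of chromosome 2 at 28084879 to 28085128 (Fcnb), chromosome 2 at 32387740 to 32387989 (Lcn2) and chromosome 3 at 106167565 to 106167814 (Chil3), and on the plus strand of chromosome 9 at 110419558 to 110419807 (Ngp).
Fcnb: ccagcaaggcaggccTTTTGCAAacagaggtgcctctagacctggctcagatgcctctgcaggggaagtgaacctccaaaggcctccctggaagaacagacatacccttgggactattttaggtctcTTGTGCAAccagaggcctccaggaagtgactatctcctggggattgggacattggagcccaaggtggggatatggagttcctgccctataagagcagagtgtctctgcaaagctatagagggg
Lcn2: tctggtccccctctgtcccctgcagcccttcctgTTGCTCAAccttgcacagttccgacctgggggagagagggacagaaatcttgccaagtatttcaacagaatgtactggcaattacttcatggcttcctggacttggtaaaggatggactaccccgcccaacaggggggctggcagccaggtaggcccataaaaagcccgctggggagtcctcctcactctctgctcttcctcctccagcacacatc
Ngp: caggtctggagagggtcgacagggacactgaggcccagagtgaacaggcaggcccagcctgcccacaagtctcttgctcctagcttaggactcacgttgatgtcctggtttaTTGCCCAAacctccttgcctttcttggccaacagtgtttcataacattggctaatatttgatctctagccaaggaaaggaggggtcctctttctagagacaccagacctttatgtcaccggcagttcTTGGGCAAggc
Chil3: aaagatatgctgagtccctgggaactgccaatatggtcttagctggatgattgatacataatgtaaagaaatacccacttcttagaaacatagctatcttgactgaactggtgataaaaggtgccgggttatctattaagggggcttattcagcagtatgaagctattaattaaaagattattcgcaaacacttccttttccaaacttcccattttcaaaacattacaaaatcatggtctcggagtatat
Fcnb held 2 matches, starting 235 and 123 bases before the start, Lcn2 held 1 at 216 bases, Ngp held 2 at 138 and 11 bases and Chil3 held none. The pattern was present in 10.8% of the 27025 genes with a window. It was present in 9 of the 16 secondary and gelatinase granule genes with a window (Lcn2, Ngp, Ltf, Mmp8, Slpi, Adam8, Anxa1, Ly6g and Retnlg) and in 0 of 10 primary granule genes. A match describes letters only and is not evidence of binding.

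The class held 194, 359, 304 and 424 cells. That was 2.71% of filtered cells in control (exact Clopper-Pearson 95% interval 2.35 to 3.12) and 4.17% in Mll3SI (3.75 to 4.61). In Mll4SI it was 2.72% (2.42 to 3.04), and in Mll3/4SI, where it was largest, 5.92% (5.38 to 6.49). Mll3SI stood at 1.54 times control (1.29 to 1.83), Mll4SI at 1.002 times (0.837 to 1.20) and Mll3/4SI at 2.18 times (1.84 to 2.59). Each library carried 2 hashtags, antibody tags of which the labels do not say what they mark. In control the share was 1.73% of Hashtag1 cells and 3.87% of Hashtag2 cells, a gap of the same order as that between libraries. Within Hashtag1 cells the ratios to control of Mll3SI, Mll4SI and Mll3/4SI were 2.94, 1.65 and 2.71, and within Hashtag2 cells they were 0.958, 0.780 and 1.81. Against control cells of the same hashtag, the excess in Mll3/4SI was thus present for both, and that in Mll3SI for Hashtag1 only. The labels do not say that a hashtag marks like cells in different libraries, so this pairing cannot be checked. Shares of Hashtag1 and Hashtag2 cells were 5.07% and 3.71% in Mll3SI and 4.68% and 7.01% in Mll3/4SI. The interval of Mll3/4SI Hashtag1 cells (3.95 to 5.50) overlapped that of control Hashtag2 cells (3.24 to 4.58). With no late or monocyte gene allowed at 2 or more UMIs the ratios were 1.96, 0.472 and 1.18, the last with an interval of 0.884 to 1.58, so that the excess in Mll3/4SI was no longer beyond counting error and Mll3SI stood highest. When every cell was first thinned to 5000 UMIs, these ratios were 1.45, 1.36 and 1.44, of which that of Mll3/4SI had moved most.

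Fcnb itself was much more widespread than the class. At least 5 Fcnb UMIs were found in 2870, 3143, 4462 and 2397 cells, between 33.4% and 40.1% of each library. Most of these carried 2 or more late genes: 92.8%, 87.7%, 92.7% and 81.9%, fewest in Mll3/4SI. Class cells had a median of 12.5, 17, 17 and 16 Fcnb UMIs. Cells just outside the limit, with 4 Fcnb UMIs, had summed Camp of 518 CPM (UMIs per 1000000 UMIs of the class) in control and 33984 CPM in Mll4SI, and cells just inside, with 5, had 328 and 41704 CPM. The edge of the class thus lay among Camp-low cells in control and among Camp-high cells in Mll4SI. Class cells with exactly 1 late gene made up 27.3%, 28.7%, 70.4% and 64.4% of the class.

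Median depth of class cells was 20730, 14044, 14724 and 19986 UMIs, so a fixed UMI threshold was not equally strict in each library. No cell barcode was in the class in more than 1 library, while pairs of libraries shared 16 to 29 barcodes over all their cells. Xist was absent from class cells of control (0 UMIs) and stood at 0.554, 967 and 948 CPM in the other 3 libraries, while the Y-linked gene Eif2s3y was at 59.2, 54.9, 0 and 0 CPM. Sex-linked RNA thus separated control and Mll3SI from Mll4SI and Mll3/4SI, and its part in other differences between these pairs was not tested. Kmt2c stood at 71.4, 58.4, 105 and 93.0 CPM and Kmt2d at 35.7, 32.3, 27.5 and 32.3 CPM in the 4 libraries in the same order. 3′ tags do not show an altered allele, so these levels do not check the labels.

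The name given to the class fitted the libraries unequally. Camp encodes cathelicidin, an antimicrobial peptide of secondary granules, and its median in single class cells was 3.44, 23.0, 677 and 498 UMIs per 10000. Elane, neutrophil elastase, had medians of 157, 176, 21.9 and 6.66 UMIs per 10000 in the same order. Cells with Camp below 1% of their UMIs were 139 of 194 (71.6%), 204 of 359 (56.8%), 66 of 304 (21.7%) and 116 of 424 (27.4%). Cells with Camp above 6% were 8.76%, 17.5%, 58.9% and 44.6% of the class. In control and Mll3SI most class cells were therefore Elane-high and Camp-low, with the marker genes Chil3, Lcn2 and Camp at low levels. In Mll4SI most lay above 6% Camp, and in Mll3/4SI more lay above 6% than in either lower range. These last 2 libraries are called Camp-high below. The class thus held cells of both programmes rather than 1 uniform stage, and summed levels below mix its parts in different proportions. It did not simply lie between the earlier and the later class. Elane, Mpo, Prtn3, Ctsg and Ms4a3 together stood at 37299 CPM in control class cells and 25820 CPM in the earlier class of control. In Mll4SI 178 of 304 class cells had Ltf as their only late gene at 2 or more UMIs.

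**Figure D1:**
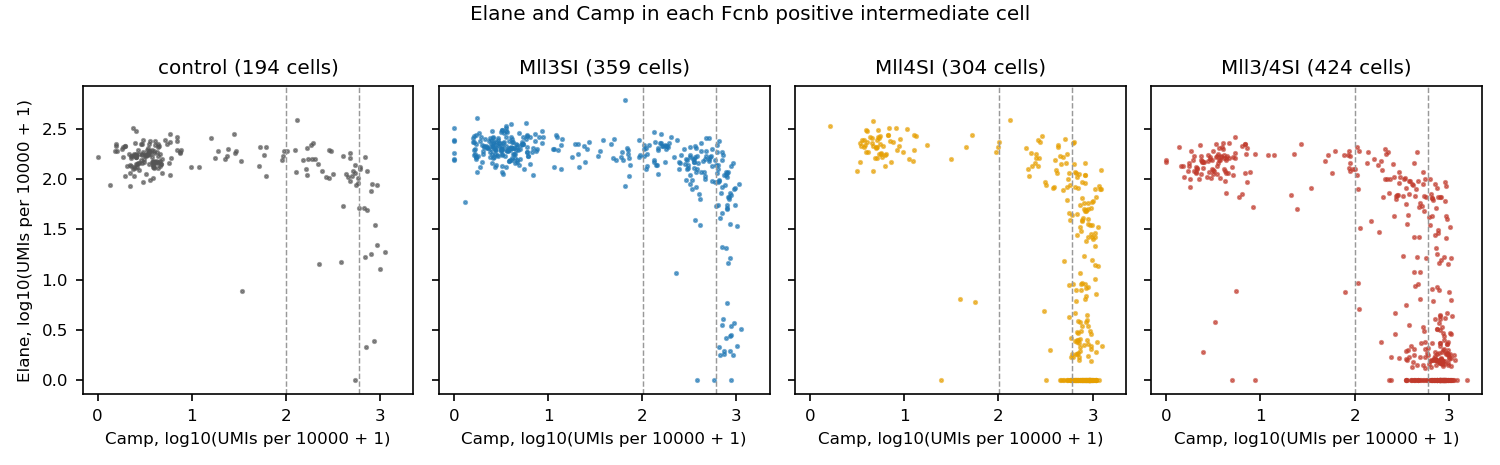
Elane (vertical axis) and Camp (horizontal axis) in every Fcnb positive intermediate cell, as log10 of UMIs per 10000 plus 1, with 1 panel per library and dashed lines at Camp shares of 1% and 6% of UMIs. Control and Mll3SI cells gather at upper left (Elane high, Camp low), and Mll4SI and Mll3/4SI cells gather at lower right.

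Genes were compared as CPM of the UMIs summed over class cells (4090240, 5413515, 4466044 and 9033903 UMIs), as the log2 ratio to control of CPM + 1. Of 8964 genes with a mean of at least 5 CPM, 66 were past 2-fold in Mll3SI (0.736%), against 765 in Mll4SI (8.53%) and 710 (7.92%) in Mll3/4SI. These counts depended on the cells taken. When the rule was applied to cells thinned to 5000 UMIs they were 59, 166 and 152. Among class cells with Camp at 1% to 6% of UMIs they were 540, 769 and 762. That stratum held only 38, 92, 59 and 119 cells, so genes near the filter rest on few UMIs there. Counting error thus adds to its counts, and they are not comparable with the main ones. In Mll3SI 35 were higher (0.390%) and 31 lower (0.346%), in Mll4SI 325 higher (3.63%) and 440 lower (4.91%), and in Mll3/4SI 299 higher (3.34%) and 411 lower (4.59%). Scaling by median-of-ratios size factors raised the median log2 ratio of all genes by 0.08, 0.18 and 0.19, and the share of calls that were higher went from 53.0%, 42.5% and 42.1% to 65.6%, 66.0% and 68.7%, each in the order Mll3SI, Mll4SI, Mll3/4SI. All 3 comparisons used the same control library.

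Several primary granule genes were lower in Mll4SI and Mll3/4SI class cells than in control. Of 12 measured, 0 were past 2-fold in Mll3SI (median log2 -0.02, against -0.05 for all genes tested), 5 were lower in Mll4SI (median -0.94, all genes -0.15) and 9 were lower in Mll3/4SI (median -1.20, all genes -0.18). Over all genes 4.91% and 4.59% were lower in these 2 comparisons. Under the rule on thinned cells 2 of the 12 were lower in Mll4SI (median -0.68) and 0 in Mll3/4SI (median -0.43), and with no late or monocyte gene 0 and 3 were (medians -0.23 and -0.76). Elane was at 15559, 17208, 8924 and 6351 CPM, and with no late or monocyte gene at 17484, 19613, 18286 and 9818 CPM. Ctsg, cathepsin G, was at 6623, 5634, 2004 and 1896 CPM, and Mpo, myeloperoxidase, at 4445, 3701, 1843 and 1970 CPM. Nkg7, a granule membrane protein, was at 875, 859, 466 and 273 CPM, and Srgn, the serglycin core that packs granule proteins, at 4014, 4113, 1866 and 1559 CPM. Serpinb1a, the cytosolic inhibitor of these proteases, was nearly level at 1425, 1515, 1521 and 1262 CPM. Control and Mll3SI were the high pair for every gene named here except Serpinb1a. In the earlier class the list's median was 0.01 in Mll4SI and -0.01 in Mll3/4SI.

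Most genes of secondary and gelatinase granules were higher in Mll4SI class cells, and those of Mll3/4SI were divided. Of 14 measured, after leaving out the rule's own genes, 1 was higher in Mll3SI (median log2 0.25), 9 were higher and 0 lower in Mll4SI (median 1.56), and 7 were higher and 3 lower in Mll3/4SI (median 0.99). Of all genes tested, 0.390%, 3.63% and 3.34% were higher in these 3 comparisons, and 4.59% were lower in Mll3/4SI. Camp was at 12268, 19538, 54981 and 43808 CPM. Lcn2, lipocalin 2, which binds bacterial siderophores, was at 691, 1064, 4689 and 5565 CPM, and Ngp, neutrophilic granule protein, at 2153, 3287, 15781 and 18131 CPM. Itgb2l, a beta integrin, was at 9.53, 24.8, 39.4 and 95.1 CPM and was the member past 2-fold in Mll3SI. These 4 genes were lowest in control, with Mll3SI next in order. Within Hashtag1 cells, however, Lcn2 was at 786 CPM in Mll3SI against 1274 in control and Ngp at 2338 against 3439, and both were also below control in Mll3SI under the rule on thinned cells.

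The 3 members lower in Mll3/4SI were Chil3, Olfm4 and Slpi. Chil3 was at 1597, 1350, 4863 and 426 CPM, so that Mll4SI had a log2 ratio of 1.61 (1.57 to 1.65) and Mll3/4SI one of -1.90 (-1.96 to -1.85). Chil3 had no UMI in 11.9%, 18.9%, 8.88% and 50.5% of class cells. In the earlier class these shares were 33.7%, 63.4%, 36.0% and 68.6%, high in Mll3SI as well as in Mll3/4SI. Olfm4, olfactomedin 4 of a neutrophil subset, was at 28.8, 25.9, 106 and 5.76 CPM, and Slpi, a secreted inhibitor of serine proteases, at 239, 150, 141 and 64.1 CPM. Summed over the class, Chil3 and Lcn2, both marker genes of it, were thus both higher in Mll4SI and went opposite ways in Mll3/4SI. Within ranges of Camp share, given below, Chil3 in Mll4SI was not above control. Olfm4 turned to 3.60 in Mll3/4SI among cells with Camp at 1% to 6% of UMIs, so its direction was not stable.

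**Figure D2:**
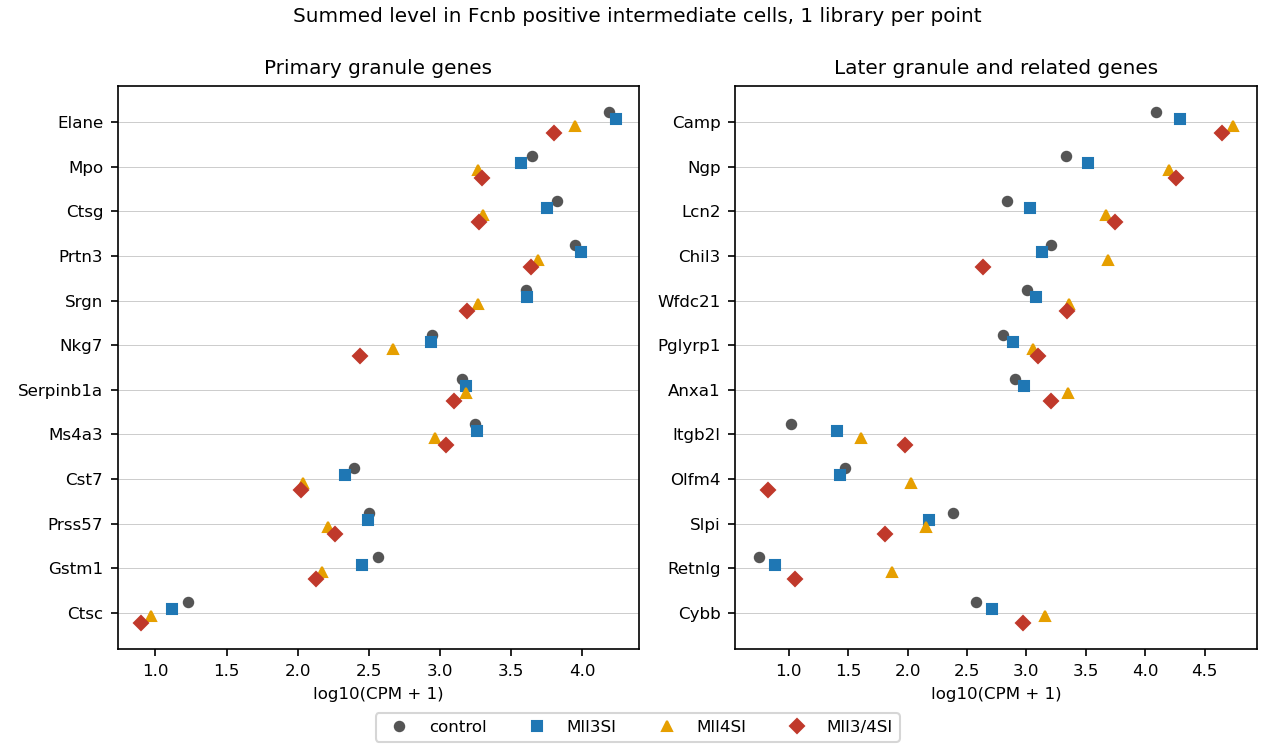
Summed level of 12 primary granule genes (left) and 12 later granule and related genes (right) in Fcnb positive intermediate cells, as log10 of CPM plus 1 on the horizontal axis, with 1 point per library. Elane, Mpo and Ctsg stand to the left in Mll4SI and Mll3/4SI, Camp, Ngp and Lcn2 to the right, and Chil3, Olfm4 and Slpi are lowest in Mll3/4SI.

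Several of these differences changed when the rule was applied to thinned cells, which also changed the cells that it took. When the rule was applied after thinning each cell to 5000 UMIs, it took 286, 500, 595 and 414 cells, and Camp then stood at 52824, 54741, 72614 and 55390 CPM. Lcn2 stood at 6289, 5718, 7643 and 6255 CPM, so that its log2 ratio in Mll3/4SI fell from 3.01 to -0.01, and the median of the secondary granule list fell from 0.99 to -0.03. In control the thinned rule took cells with levels nearer the later class. Camp was at 64210 and Lcn2 at 10325 CPM in that later class, against 12268 and 691 CPM under the main rule. Median depth was alike in control and Mll3/4SI class cells (20730 and 19986 UMIs), and the part of depth in these changes was not tested. Chil3 remained lowest in Mll3/4SI under the thinned rule, at 8356, 4538, 7681 and 2655 CPM. In Mll4SI its ratio went from 1.61 to -0.12. The higher Camp and Lcn2 of Mll3/4SI and the higher Chil3 of Mll4SI were thus seen under the rule at each cell's own depth and not under the thinned rule, and the low Chil3 of Mll3/4SI was seen under both.

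Cells were also split by their own Camp share, so that libraries could be read within a like range of it. These strata were chosen after the values were seen, and they did not bring the libraries to the same point of the switch. At 1% to 6%, Camp was at 32818, 30626, 41123 and 36775 CPM and Elane at 13701, 15395, 10670 and 5474 CPM. Above 6% Camp, Chil3 was at 8007, 4517, 7336 and 336 CPM, over 17, 63, 179 and 189 cells. In the same stratum Ngp was at 14894, 14717, 24275 and 30999 CPM, and Lcn2 at 5332, 4795, 7237 and 10101 CPM. Below 1% Camp, Ngp was at 176, 201, 147 and 1742 CPM. Elane below 1% Camp was at 16906, 20355, 21930 and 13689 CPM, and above 6% it was at 6445, 7275, 2705 and 1073 CPM. In Mll3/4SI Ngp and Lcn2 were above control in every stratum. Lcn2 in Mll4SI was also above control in each, by less (112 against 88.7, 3122 against 1300 and 7237 against 5332 CPM). Ngp in Mll4SI was near control below 1% Camp. It was above control at 1% to 6% (10986 against 5134 CPM) and above 6%. Chil3 in Mll4SI was below control in every stratum (169 against 409, 3631 against 3881 and 7336 against 8007 CPM). Its higher summed level in Mll4SI was thus not seen within any stratum.

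**Figure D3:**
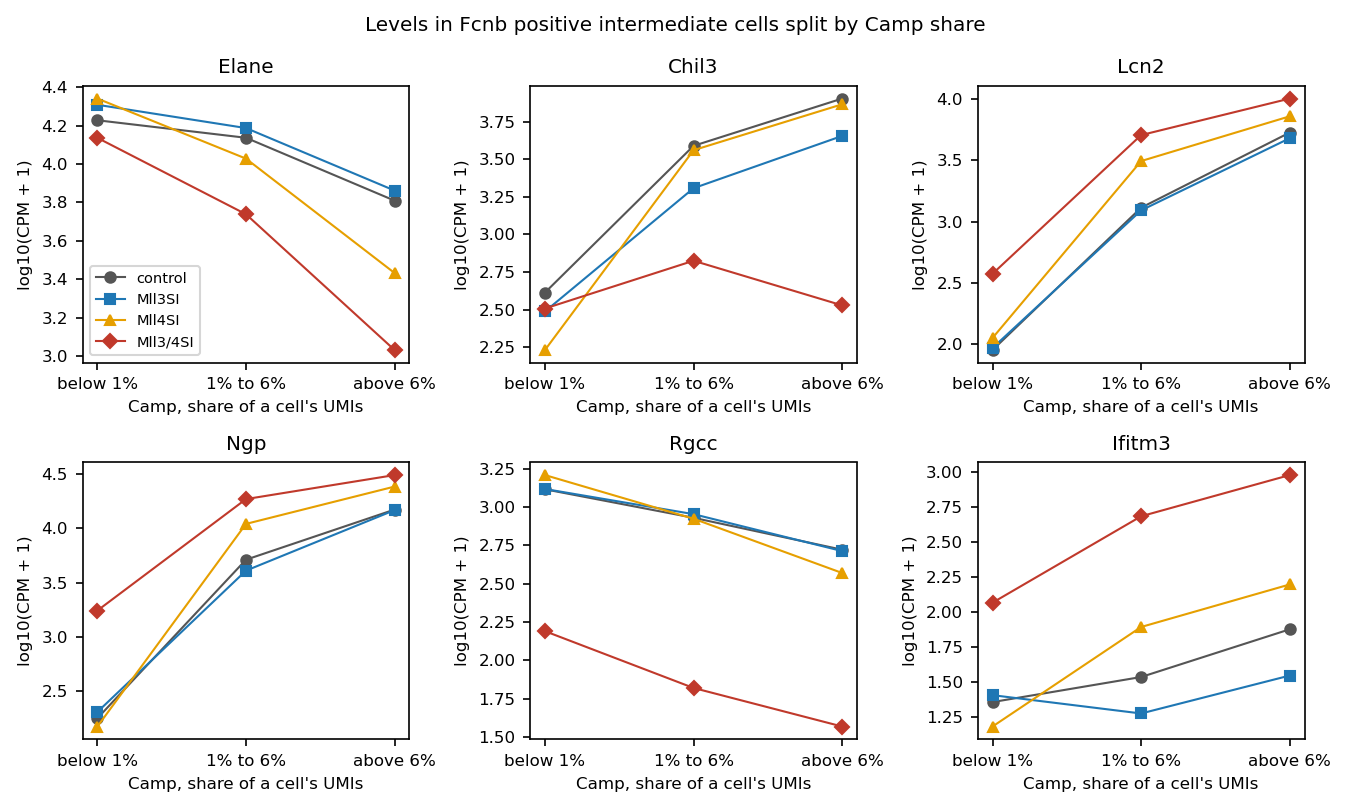
Levels of 6 genes (log10 of CPM plus 1) in Fcnb positive intermediate cells split by the share of Camp in a cell's UMIs, with 1 line per library. Rgcc is lowest and Ngp, Lcn2 and Ifitm3 highest in Mll3/4SI in all 3 strata, and Chil3 rises with Camp in every library but Mll3/4SI.

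Rgcc and Siglece were among the genes furthest below control in Mll3/4SI. Rgcc, a regulator of the cell cycle known from the complement response, was at 1166, 1093, 764 and 81.8 CPM, a log2 ratio of -3.82 (-3.95 to -3.72) in the last. It was low there in Hashtag1 cells (111 CPM against 1126 in control) and in Hashtag2 cells (65.1 against 1194), under the thinned rule (71.5 against 541), and in all Camp strata. In the earlier and the later class Mll3/4SI was also far below control, with 29.8 CPM against 628 and 34.7 against 229. Siglece, an inhibitory receptor for sialic acids on myeloid cells, was at 21.5, 36.4 and 66.9 CPM in control, Mll3SI and Mll4SI, and had 0 UMIs in Mll3/4SI. Set against a floor of 3 UMIs in that library it was at least 64.8-fold lower than control, and in the later class it was at 2.56 CPM against 121. Cd33, a related receptor, was at 13.7, 14.8, 44.8 and 5.20 CPM. The 2 receptors were highest in Mll4SI and lowest in Mll3/4SI in the class as a whole. Above 6% Camp, Siglece in Mll4SI was near control (88.9 against 80.9 CPM). In the later class of Mll4SI both were near control (Siglece 124 against 121, Cd33 127 against 127 CPM).

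Stefin A genes were far higher in Mll3/4SI class cells than in the other 3 libraries. They encode cytosolic inhibitors of cysteine proteases and lie in a cluster of near-identical copies on chromosome 16, so the split of reads among copies is uncertain. Cstdc5 was at 0.733, 0.369, 0.224 and 367 CPM. Cstdc4 had 0 UMIs in the first 3 libraries and 1238 in Mll3/4SI (137 CPM), at least 187-fold higher than the floor of 3 UMIs in control. Stfa2l1 was at 0, 0, 0 and 77.5 CPM, and Stfa1 at 9.05, 0.554, 3.81 and 143 CPM. All 5 list members that were measured were past 2-fold higher in Mll3/4SI, where 3.34% of all genes were, with a median log2 of 4.45, or 4.83 with members at 0 in control set to their bound. They passed the filter on low values through this library, so that count is not independent of the choice. Cstdc5 was also high in the earlier class of Mll3/4SI (77.8 CPM against 0 in control) and in the later class (435 against 3.75).

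Some transcripts of the interferon response were higher in Mll3/4SI class cells. Of 15 list members 7 passed the filter, and 3 of these (Isg15, Ifi27l2a and Xaf1) were past 2-fold higher in Mll3/4SI, with a median of 0.95 over the 7; in Mll3SI 0 were past 2-fold, and in Mll4SI 1 (Bst2) was lower. Over all genes 3.34% were higher in Mll3/4SI and 4.91% lower in Mll4SI. Isg15, Ifi27l2a and Xaf1 passed the filter on low values through Mll3/4SI alone, so this count was fixed by the filter and supports nothing by itself. Isg15, a ubiquitin-like protein, was at 2.69, 3.14, 2.02 and 27.8 CPM, a log2 ratio of 2.96. Ifi27l2a was at 0.489, 0.739, 0.896 and 27.0 CPM. Irf7, a factor that amplifies the response, did not pass the filter and was at 0.244, 0.185, 0.672 and 6.86 CPM. Bst2, tetherin, was at 62.6, 65.2, 19.7 and 80.3 CPM. In Mll3/4SI the 2 hashtags differed: Isg15 was at 6.72 CPM in Hashtag1 cells and 40.1 in Hashtag2 cells, and Ifi27l2a at 5.71 and 40.0 CPM.

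The upstream window of Isg15, on the minus strand of chromosome 4 at 156200819 to 156201068 (GRCm38.p6, RefSeq), is shown because Isg15 was among the genes past 2-fold and its window holds the letters of the known interferon response element, with matches to GAAANNGAAA or TTTCNNTTTC in capitals.
Isg15: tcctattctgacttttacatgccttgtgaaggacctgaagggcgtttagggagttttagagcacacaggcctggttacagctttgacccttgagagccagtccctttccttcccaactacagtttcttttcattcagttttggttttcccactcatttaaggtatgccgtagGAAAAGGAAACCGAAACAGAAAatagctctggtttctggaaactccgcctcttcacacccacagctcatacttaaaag
The capitals are 3 overlapping matches, starting 78, 72 and 66 bases before the start. The pattern was present in 3.46% of genes with a window and in 6 of 10 interferon list members with one (Isg15, Ifit1, Ifit3, Stat2, Rsad2 and Bst2).

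Ifitm3 and Ifitm6, membrane proteins of a family that restricts virus entry, were higher in both libraries that were Camp-high. Ifitm3 was at 27.6, 24.2, 106 and 551 CPM, and Ifitm6 at 23.7, 21.2, 318 and 581 CPM. Under the thinned rule Ifitm6 was at 295, 146, 450 and 485 CPM and Ifitm3 at 123, 83.0, 160 and 435 CPM, so the difference from control shrank for both and stayed past 2-fold for Ifitm3 in Mll3/4SI, with a log2 ratio of 1.82. With no late or monocyte gene Ifitm3 in Mll4SI was at 17.7 CPM against 19.5 in control. MHC class I genes present peptides to T cells. Of 9 measured, 2 were lower in Mll4SI (median -0.73, with 4.91% of all genes lower). In Mll3/4SI 1 was higher (median 0.11, with 3.34% of all genes higher), and in Mll3SI 0 were past 2-fold. H2-K1 was at 744, 773, 298 and 754 CPM, and H2-Q7, a class Ib gene with a near-identical neighbour, at 54.5, 46.2, 6.72 and 171 CPM. H2-K1 was lowest in Mll4SI in cells of either hashtag (240 and 335 CPM against 656 and 775 in control). H2-Q7 in Mll3/4SI was at 36.3 CPM in Hashtag1 cells and 248 CPM in Hashtag2 cells, against 34.8 and 61.3 CPM in control.

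**Figure D4:**
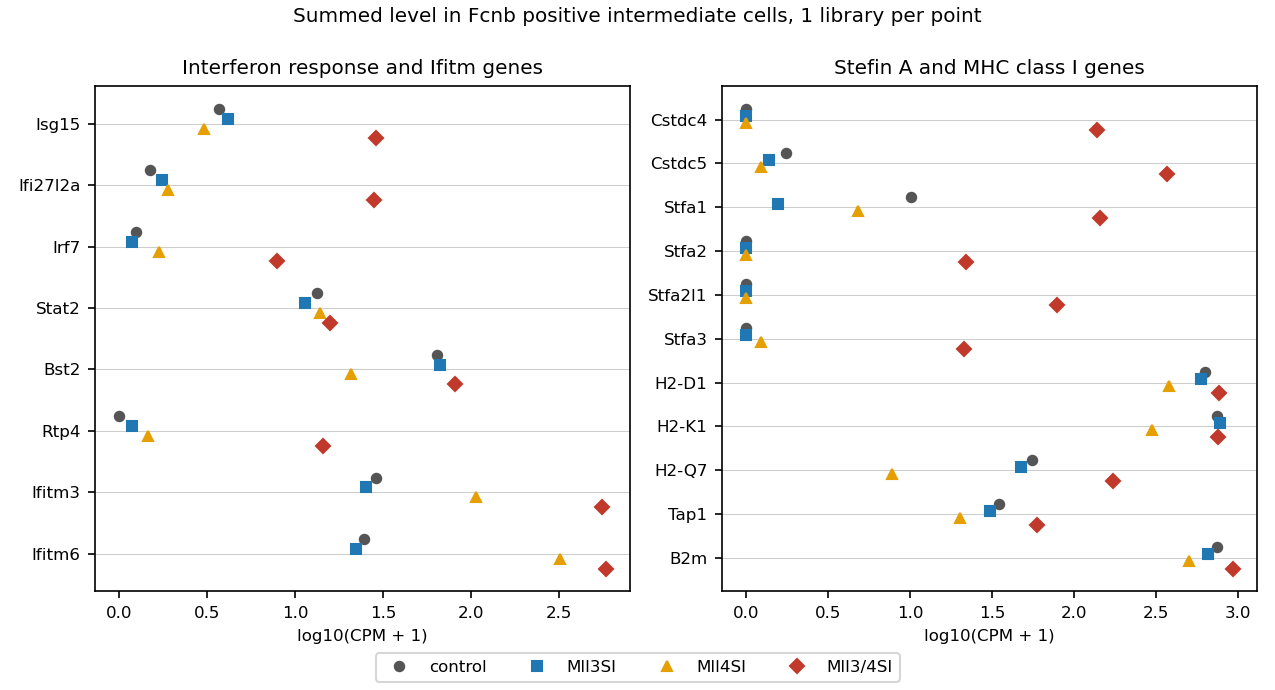
Summed level of interferon response and Ifitm genes (left) and of stefin A and MHC class I genes (right) in Fcnb positive intermediate cells, as log10 of CPM plus 1, with 1 point per library. Mll3/4SI stands alone at the right for Isg15, Ifi27l2a and the stefin A genes, and Mll4SI is lowest for H2-K1 and H2-Q7.

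Calcium-binding S100 proteins make up much of the neutrophil cytosol. Of 6 genes measured, 3 were higher and 1 lower in Mll4SI (median 0.82) and in Mll3/4SI (median 1.05), and 0 were past 2-fold in Mll3SI. Among all genes tested 3.63% were higher and 4.91% lower in Mll4SI, and 3.34% and 4.59% in Mll3/4SI. S100a8 was at 15514, 17977, 49857 and 73896 CPM, and S100a6 at 9.53, 14.6, 85.8 and 178 CPM. S100a10 was the member that was lower, at 22.7, 11.3, 6.05 and 7.31 CPM. Of 6 NADPH oxidase genes, whose complex makes superoxide, Cybb alone was past 2-fold, at 373, 514, 1422 and 936 CPM. Under the rule on thinned cells 0 of 6 S100 genes were higher in either Camp-high library and 1 was lower in each, with medians of -0.02 in Mll4SI and 0.20 in Mll3/4SI. S100a8 then had log2 ratios of 0.25 and 0.67, S100a6 of 0.10 and 0.26, and Cybb of 0.46 and -0.04 in these 2 libraries.

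Among 14 transcription factors of the lineage, 0 were past 2-fold in Mll3SI, 3 were higher and 1 lower in Mll4SI, and 2 were higher and 3 lower in Mll3/4SI, with medians of 0.07 in the first 2 and 0.08 in the last. For comparison, 3.63% of all genes tested were higher and 4.91% lower in Mll4SI, and 3.34% and 4.59% in Mll3/4SI. Cebpe, the C/EBP factor of the secondary granule step, was at 346, 363, 463 and 466 CPM, short of 2-fold. Klf5, a Krüppel-like factor, was at 15.6, 16.6, 52.4 and 37.0 CPM, and Myc, a driver of growth, at 67.5, 68.9, 36.9 and 26.3 CPM. Of 10 ribosome biogenesis genes, 0 were lower in Mll3SI (median -0.23), 2 in Mll4SI (median -0.95) and 3 in Mll3/4SI (median -0.86). Under the rule on thinned cells 0 genes of either list were past 2-fold in these 2 libraries. Npm1, nucleophosmin, was at 1221, 1075, 521 and 499 CPM. Among cells at 1% to 6% Camp the median of this list in Mll4SI was 0.04. None of 16 cell cycle genes was past 2-fold in any library, and their medians were 0.18, 0.19 and 0.19. Mki67, a marker of cycling cells, was at 213, 225, 343 and 336 CPM.

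Of 19 receptor and adhesion genes, 0 were past 2-fold in Mll3SI, 5 were higher in Mll4SI, and 4 were higher and 2 lower in Mll3/4SI. All genes tested had 3.63% higher in Mll4SI, and 3.34% higher and 4.59% lower in Mll3/4SI. With a filter at a mean of 20 CPM, 2 of 15 were higher in Mll4SI, and 2 were higher and 1 lower in Mll3/4SI. Of all 5688 genes past that filter, 170 were higher in Mll4SI, and 150 were higher and 212 lower in Mll3/4SI. Fpr2, a receptor for formyl peptides, was at 0.244, 0.739, 14.6 and 10.7 CPM. It passed the main filter only through the libraries where it was high, so its calls were fixed by the filter. Cxcr2, the receptor that draws neutrophils from marrow, was at 5.62, 6.65, 21.9 and 14.8 CPM. Itgam, the CD11b integrin chain, was at 161, 181, 360 and 325 CPM. Kit, the gene of the sort marker, was at 96.8, 72.0, 81.5 and 67.1 CPM. Control was lowest for the first 3 and highest for Kit. Under the rule on thinned cells 2 of 19 were higher in Mll4SI, and 1 was higher and 2 lower in Mll3/4SI.

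Other genes at the extremes were chosen by size among genes with a mean of at least 20 CPM. Hmga2, a chromatin architecture protein of fetal and stem cells, was at 0.733, 1.48, 18.1 and 73.3 CPM, and kept this order in cells of both hashtags apart from the 2 low libraries. Inhba, the activin A subunit, was at 4.65, 4.62, 102 and 7.97 CPM, high in Mll4SI, and in the later class it was at 184, 163, 271 and 149 CPM. Dmkn, dermokine, was at 204, 205, 29.6 and 25.7 CPM. Tpm3-rs7, a processed copy of a tropomyosin gene whose reads may be shared with its parent, was at 176, 6.10, 124 and 6.86 CPM, low in Mll3SI and Mll3/4SI alike and in all 3 classes. In Mll3SI, where 0.736% of genes were past 2-fold, Tspan32, a tetraspanin, was at 29.4 CPM against 96.3 in control, and Pttg1, securin of the cell cycle, at 132 against 61.4. Pttg1 was close to this level in Mll4SI (138 CPM) and Mll3/4SI (140 CPM) as well.

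Over cells of the class, the earlier class and the later class together, the genes whose level was most like that of Fcnb were Hmgn2 (median Spearman rho over 4 libraries 0.55), Scp2 (0.54), Pglyrp1 (0.50), Tmsb4x, Serpinb1a, Lyz2 and Wfdc21 (0.49 each), Lcn2 (0.47), Camp (0.46) and Ngp (0.46). In Mll4SI and also in Mll3/4SI rho was below that of control for each of the 10. It went down to 0.10 in Mll4SI for Wfdc21 (control 0.50, Mll3/4SI 0.48) and 0.14 for Tmsb4x (control 0.57, Mll3/4SI 0.42). Later class cells were 3783 of 4887 in control, 7804 of 8806 in Mll4SI and 2999 of 4420 in Mll3/4SI. The part of this mix in rho was not tested. Between 4420 and 8806 cells of a library entered each value, and cells of 1 library share its depth and preparation. The rule itself set these cells apart by Fcnb and the late genes, so the ranking is shaped by the selection and is a description only. Pglyrp1, a peptidoglycan recognition protein, was at 641, 765, 1135 and 1251 CPM in the class. Fcnb itself was at 987, 1371, 1710 and 1044 CPM, a description only, since the rule used it.

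Surface antibodies were not used by the rule. In control CD117, CD48, CD11b and Gr1 lay between their levels in the earlier and the later class. Gr1 is of the Ly6 family, as is Ly6g, a late gene of the rule, so its step between classes is not independent of the rule. CD117, the Kit protein, made up 11.04%, 8.40%, 7.18% and 5.83% of surface antibody UMIs in class cells, against 16.3% in the earlier and 2.99% in the later class of control. CD11b was at 14.3%, 15.8%, 25.5% and 23.7%, against 1.57% and 21.6% in those 2 control classes, and in Mll4SI it was above the 22.0% of its own later class. Gr1, a granulocyte antigen of the Ly6 family, was at 10.5%, 13.6%, 14.6% and 4.30%, lowest in Mll3/4SI although Camp was high there. In the later class Gr1 was at 44.7% in control and 24.9% in Mll3/4SI. CD16_32, the Fc gamma receptors, was at 28.4%, 28.2%, 32.2% and 39.2%, above both neighbouring classes in all 4 libraries (18.3% and 19.4% in control), and CD48 at 32.9%, 29.98%, 17.9% and 23.2%. The other 8 antibodies were each at most 1.12% in every library. CD41 stood out among them in Mll3/4SI, at 0.608% against 0.203% in control, and it was also higher there in the later class (0.586% against 0.134%). Shares of 1 total rise and fall together, and background staining was not measured.

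**Figure D5:**
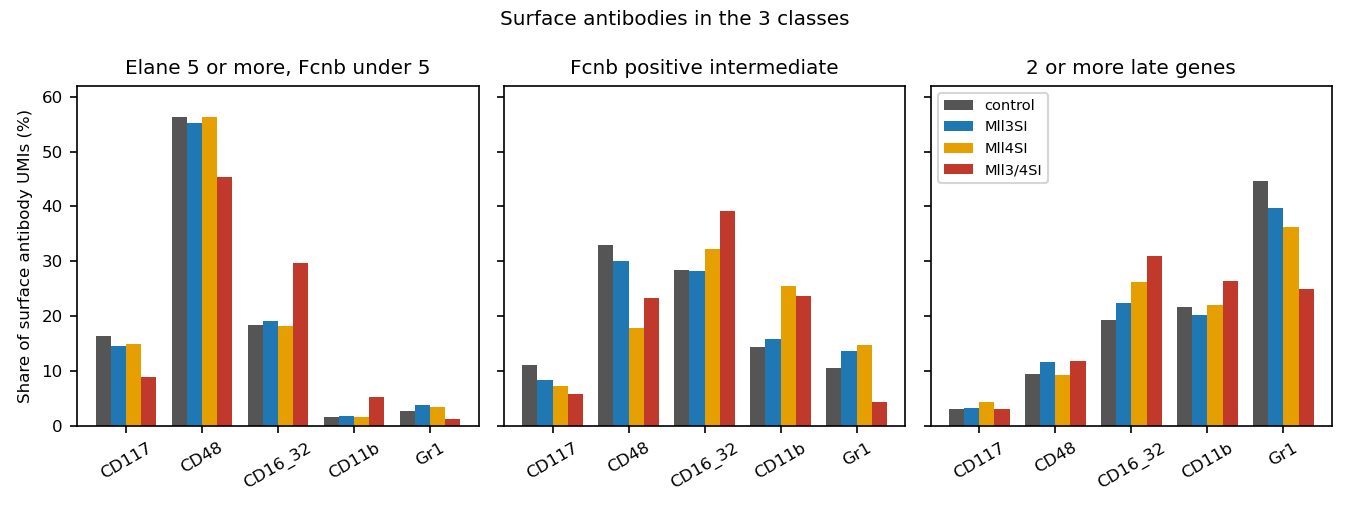
Share of surface antibody UMIs (vertical axis, percent) for 5 antibodies in the earlier class (left), the Fcnb positive intermediate class (middle) and the later class (right), with 1 bar per library. CD117 and CD48 fall and CD11b and Gr1 rise from left to right in control, and Gr1 is lowest in Mll3/4SI in all 3 classes.

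Markers of most other cell types were low in the class. Summed over its list, the T and NK markers stood at 0.672 to 12.3 CPM, the eosinophil markers at 0.896 to 2.32, the erythroid markers at 2.55 to 15.1 and the megakaryocyte markers at 2.91 to 4.43 CPM, with Cd3e and Epor at 0 in every library. Basophil and mast cell markers stood at 21.8, 24.2, 13.2 and 75.4 CPM, of which Cpa3, a mast cell protease, held 21.3 CPM in Mll3/4SI against 2.44 in control. The earlier class of the same library held Cpa3 at 427 CPM against 153 in control. B-lymphoid markers stood at 12.1 to 40.8 CPM and macrophage markers at 92.7 to 156 CPM. In each library the macrophage sum was above both neighbouring classes (in control 148 against 40.2 and 46.3 CPM). Monocyte markers stood at 1038 to 1807 CPM, nearly all of it Ly6c2, a surface antigen that granulocyte precursors share. Their sum was also above both neighbouring classes in each library (in control 1807 against 800 and 820 CPM). The rule itself limited 6 of these 9 markers. The part of RNA from such cells in the differences above was not tested.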

How the data were processed

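Gene and antibody UMI counts per cell were deposited as filtered matrices; the submitters' processing notes name Cell Ranger 7.1.0 and mm10, and give no filter on cells. The tables hold 32285 genes and 15 antibodies (13 surface, 2 hashtags), and 32235 gene identifiers matched GENCODE vM21. Totals over filtered cells were 138592699 to 176828907 UMIs per library. Members, gene lists, marker lists and classes were chosen with earlier results of these data known.

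UMIs were summed per class and library and scaled to 1000000 (CPM). Log2 ratios used CPM + 1, with a mean of at least 5 CPM for a gene to be tested and 2-fold as the call. The 95% intervals of ratios are exact conditional intervals on the counts, those of shares are Clopper-Pearson intervals, and ratios of shares combine both shares' intervals (MOVER); all cover counting error only, and a count of 0 was set to a floor of 3 UMIs per library. With 1 library per group no test was made. Named genes were the 10 highest and 10 lowest per comparison among genes with a mean of at least 20 CPM, without genes of the rule, mitochondrial, ribosomal protein, Xist, Y-linked and unnamed predicted genes, and up to 6 members of each list; not all are printed. Genes most like Fcnb were the 10 with the highest median Spearman correlation over cells. Kmt2c, Kmt2d, Cpa3, Xist and Eif2s3y lie outside that rule and are given as checks. Doublets were kept in the main values; Scrublet scores (scanpy 1.11.5) gave an alternative. Hashtag positivity was set at 132 (Hashtag1) and 286 UMIs (Hashtag2). The ratio and call code was tested on simulated counts. Python 3.11.15, numpy 2.4.6, scipy 1.17.1 and pandas 2.3.3 were used. Values of some list members are not reported here.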

Additional observations from a re-analysis of the deposited data

Results flagged for a closer look

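Plbd1, a phospholipase B-like protein of neutrophils, went opposite ways in 2 classes under the same comparison of Mll3/4SI with control. In Fcnb positive intermediate cells its log2 ratio was 3.22, from 1.22 to 19.7 CPM, and in the later class it was -1.05, from 348 to 168 CPM. The difference was not tested, with 1 library per group. Under the rule applied to cells thinned to 5000 UMIs the ratio in the intermediate class was -0.76, and the cause was not tested.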

How the results depend on the processing

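Leaving out a replicate was not possible with 1 library per group. No paired analysis was possible because each group has 1 library and the groups share only the number 1. The share ratio to control in Mll3SI, Mll4SI and Mll3/4SI was 2.94, 1.65 and 2.71 within Hashtag1 cells, 0.958, 0.780 and 1.81 within Hashtag2 cells, 1.88, 1.26 and 2.68 at 10 or more Fcnb UMIs, and 1.96, 0.472 and 1.18 with no late or monocyte gene allowed. With the rule on cells thinned to 5000 UMIs it was 1.36 in Mll4SI and 1.44 in Mll3/4SI, and as a share of cells with 5 or more Fcnb UMIs it was 2.62 in Mll3/4SI (added after seeing the data). Removing high doublet scores, removing cells of both hashtags and a limit of 3 Fcnb UMIs left each ratio within its main interval.

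Counts of genes past 2-fold were 66, 765 and 710 in the main analysis. They were 226 and 1437 in Mll3SI and Mll4SI within Hashtag1 cells, and 193 and 1139 in Mll3SI and Mll3/4SI within Hashtag2 cells. They were 427 and 428 in Mll4SI and Mll3/4SI at 10 or more Fcnb UMIs, 166 and 152 with the thinned rule, and 137 in Mll3SI with no late or monocyte gene. A filter at 20 CPM gave 16, 350 and 362, a filter at 1 CPM gave 192 in Mll3SI and 1217 in Mll4SI, and CPM + 5 gave 20, 420 and 397. Cells with Camp at 1% to 6% of UMIs (added after seeing the data) gave 540 in Mll3SI, with only 38 such cells in control, so counting error adds to that count.

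For 153 named genes in 3 comparisons, 145 differences were past 2-fold, and 29 of their 2030 values under alternatives changed sign. Of 4396 values of differences short of 2-fold, 503 changed sign, among them Elane (0.065) and Prtn3 (0.0037) in Mll4SI with no late or monocyte gene, and Lcn2 (-0.70) and Ngp (-0.56) in Mll3SI within Hashtag1 cells. Sign changes of differences past 2-fold, and of list medians, in Mll3SI were Lilrb4a (-0.079) and Plbd1 (-0.49) within Hashtag1 cells, and Oprm1 (-0.20) and Plbd1 (-0.78) with the thinned rule. In Mll4SI they were Stfa1 (0.52) within Hashtag2 cells, Chil3 (-0.12) and the S100 median (-0.024) with the thinned rule, and Fmnl2 (-0.14), Ifitm3 (-0.13) and S100a6 (-0.44) with no late or monocyte gene. In Mll3/4SI with the thinned rule they were the secondary granule median (-0.030), Anxa1 (-0.030), Cybb (-0.037), Itgam (-0.058), Itgb2 (-0.097), Klf5 (-0.30), Klf6 (-0.0011), Lcn2 (-0.0078) and Plbd1 (-0.76), and Olfm4 was 2.63 with no late or monocyte gene. Within 1% to 6% Camp they were, in Mll4SI, the ribosome biogenesis median (0.045), BC035044 (0.047), Bst2 (0.19), Chil3 (-0.096), Dtd1 (0.13), Myb (0.13), Npm1 (0.15), Phgdh (0.038) and S100a10 (0.57), and, in Mll3/4SI, Klf5 (-0.12), Olfm4 (3.60) and S100a10 (0.19). With hashtags in the antibody total CD135 in Mll4SI was 0.041. The cause was not tested.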
